A study of Homo sapiens with 24 samples.

Results

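The 10 genes ATF4, ATF3, DDIT3, CEBPB, CEBPG, TRIB3, CHAC1, DDIT4, SESN2 and PPP1R15A, which carry or answer the integrated stress response, were chosen by symbol in RNA-seq tables of LNCaP cells, with their higher levels after enzalutamide already known. All 10 were present among 22227 genes of the ligand tables and 23028 genes of the siRNA tables, and all 10 passed the filters on low values (15555 and 20369 genes tested). LNCaP is an established androgen-sensitive prostate adenocarcinoma cell line, so every library came from 1 line, and neither a second line nor tumor tissue was measured here. In the ligand experiment, hormone-depleted cells were given vehicle, 10 µM enzalutamide (an antiandrogen, abbreviated MDV in the labels) or 10 nM of the androgen DHT, for 4 h or 24 h. No time was given for vehicle. In the siRNA experiment, cells were transfected with a control pool (siControl) or a pool against the pioneer factor GATA2 (siGATA2), and after the knockdown period received either vehicle or enzalutamide at 25 µM over 24 h. Each ligand condition was analyzed as 2 samples and each siRNA condition as 3. Nothing in the labels of the siRNA samples states that they came from separate cultures, so p-values there measure the spread between these samples only.

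In the integrated stress response, kinases that sense unfolded protein, amino acid shortage, viral RNA or heme deficiency phosphorylate the translation factor eIF2. General protein synthesis then slows, while the mRNA of the transcription factor ATF4 is translated more efficiently, and ATF4 with its partners switches on amino acid supply, redox defense and, under lasting stress, death genes. Because much of the control of ATF4 lies in translation, its mRNA level is not a measure of its protein, and neither eIF2 phosphorylation nor protein was measured in these libraries. Enzalutamide blocks androgen signaling, which drives much of the luminal program of these cells.

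Many ATF4 targets carry a composite C/EBP-ATF response element with the core TGATGNAA, where N is any base, to which ATF4 can bind together with a C/EBP protein. This core was searched on both strands in RefSeq promoter windows of 300 bases (GRCh38.p14) that lie mostly before each transcription start. It was found in 3 of the 10 genes, against 4.46% of 27305 genes. Of all 35116 windows, 3.62% held it. The 10 genes had 1 to 3 windows each, and the share of genes was not adjusted for the number of windows searched. The 3 windows that hold it are printed 5′ to 3′ because they show the only matches among the 10 genes, with the match in capitals. In ATF3 it began at position -191 and in CEBPG at position -42 from the start, both on the gene's strand. In CHAC1 it began at position -209 on the opposite strand, so the capitals read as its reverse complement.
CHAC1 promoter, chr15:40953221-40953520, + strand: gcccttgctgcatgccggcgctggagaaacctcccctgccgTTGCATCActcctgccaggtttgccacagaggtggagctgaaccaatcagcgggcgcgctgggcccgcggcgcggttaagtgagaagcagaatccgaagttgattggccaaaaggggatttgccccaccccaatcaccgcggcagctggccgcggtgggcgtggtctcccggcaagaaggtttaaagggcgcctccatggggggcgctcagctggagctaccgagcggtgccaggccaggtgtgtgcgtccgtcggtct
CEBPG promoter, chr19:33373863-33374162, + strand: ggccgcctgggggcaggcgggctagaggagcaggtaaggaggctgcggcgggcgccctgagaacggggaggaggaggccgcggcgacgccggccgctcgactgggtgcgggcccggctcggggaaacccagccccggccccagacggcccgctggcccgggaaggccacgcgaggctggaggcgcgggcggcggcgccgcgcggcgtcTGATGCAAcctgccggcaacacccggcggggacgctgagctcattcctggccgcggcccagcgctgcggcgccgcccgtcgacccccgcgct
ATF3 promoter, chr1:212565157-212565456, + strand: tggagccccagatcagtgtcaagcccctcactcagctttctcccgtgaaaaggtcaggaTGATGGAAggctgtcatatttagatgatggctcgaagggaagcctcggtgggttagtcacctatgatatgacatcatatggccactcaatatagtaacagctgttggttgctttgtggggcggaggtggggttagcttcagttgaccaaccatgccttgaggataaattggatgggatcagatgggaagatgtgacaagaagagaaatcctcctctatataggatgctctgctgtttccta
The full ER stress element, searched with exact end letters (0.0769% of windows), and the GATA site AGATAA (10.3% of windows) were in none of the members' windows. The search read letters only, and the RNA tables hold no binding data for these windows.

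The libraries carried LNCaP transcripts: KLK3, which encodes PSA, lay between 17.6 and 816 RPKM over the siRNA libraries. Of 10 markers of basal, fibroblast, endothelial and blood cells, COL1A1 gave nearly all the signal (9.62 to 16.3 RPKM), CD3E was at 0 and the other 8 stayed at or below 0.113 RPKM. Their sum was 9.74 to 10.7 RPKM in siControl vehicle, 11.9 to 13.1 in siControl enzalutamide, 12.8 to 16.3 in siGATA2 vehicle and 13.9 to 15.998 in siGATA2 enzalutamide libraries, and its part in the results was not tested. Both ligands acted on androgen targets. TMPRSS2, an androgen-induced protease gene, rose by 2.55 ± 0.0393 (SE, log2) after 4 h of DHT (adjusted p = 1.15e-13, edgeR), and KLK3 was lower by 1.22 ± 0.0531 after 24 h of enzalutamide (1.56e-09). GATA2 itself was at 77.0, 83.8 and 86.1 RPKM in siControl and at 46.6, 53.4 and 54.3 RPKM in siGATA2 cells given vehicle. Under enzalutamide it was at 128, 128 and 132 RPKM in siControl and at 60.1, 61.5 and 64.7 RPKM in siGATA2 cells. Thus 62.5% and 48.1% of the GATA2 transcript remained, and the 6 siGATA2 libraries lay below the 6 siControl libraries (two-sided exact permutation test, p = 0.0021645). Within each treatment the exact permutation test of 3 against 3 libraries gave p = 0.1, the smallest it can give.

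The levels of the 10 genes differed widely. Per kilobase in siControl cells given vehicle, DDIT4 (175 ± 15.4 RPKM, SD, n = 3) and ATF4 (124 ± 1.48) were highest, and CEBPG, TRIB3, DDIT3, ATF3, SESN2 and CEBPB followed between 23.8 and 8.96 RPKM. CHAC1 (4.97 ± 0.200) and PPP1R15A (2.63 ± 0.155) were lowest. No neighbors in this order overlapped, but CEBPG and TRIB3, and ATF3 and SESN2, lay closer together than the sum of their SDs and were not told apart. PPP1R15A rested on 120 to 278 estimated reads per ligand library, against 345 to 1814 for CHAC1, and its standard errors were the largest of the 10 in the ligand experiment (0.132 to 0.148 on the log2 scale). Reads of some members are shared with neighbors. Exons of DDIT3 overlap those of MARS and MBD6 on the other strand and of AC022506.1 on the same strand, from which strand cannot separate it, DDIT4 and CEBPB each overlap an antisense RNA, and ATF4 has 4 named pseudogenes. The kit kept strand, but whether the counting used it is not given in the sources used here, so values of these 4 genes are uncertain to that extent.

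The first question was how the regulators responded to the antagonist. All 10 genes were higher after enzalutamide than in vehicle in the ligand experiment, at both times, and no library of one group overlapped the other. These contrasts, with that of 25 µM enzalutamide in siControl cells, are the ones whose results were known when the genes were chosen, so the values are given as a description without a test. In bulk RNA, fewer cells of a type and less RNA per cell cannot be told apart. After 4 h, 9 of the 10 genes passed the call (adjusted p below 0.05, edgeR quasi-likelihood test over all genes), all higher, where 13.6% of all genes were called (6.94% higher, 6.68% lower). After 24 h all 10 passed (33.4% of all genes called, 16.4% higher and 17.0% lower). Nothing is read from these counts. Levels are given as CPM (a gene's reads scaled to library size), which compare a gene with itself across libraries but not with other genes. Fold changes in this experiment are log2 values ± SE from the edgeR fit.

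ATF4, the transcription factor at the head of the response, was at 404 and 410.0 CPM in vehicle, 585 and 608 CPM after 4 h of enzalutamide and 682 and 695 CPM after 24 h. Its difference from vehicle was 0.55 ± 0.0305 at 4 h and 0.76 ± 0.0306 at 24 h, so it stepped up at each time without overlap. DDIT3, which encodes the pro-apoptotic factor CHOP, was at 21.0 and 22.1 CPM in vehicle. It stood at 52.9 and 57.7 CPM at 4 h and at 54.2 and 57.4 CPM at 24 h, a plateau 1.35 ± 0.0567 and 1.37 ± 0.0564 above vehicle. ATF3, a stress-induced repressor and activator of the same family, had a different course. Its libraries read 26.8 and 27.5 CPM in vehicle, 47.8 and 50.2 CPM at 4 h and 35.5 and 39.6 CPM at 24 h. The excess over vehicle was thus 0.85 ± 0.0579 at 4 h and 0.47 ± 0.0585 at 24 h. CEBPB and CEBPG, leucine zipper partners of ATF4, were also highest at 4 h. CEBPB went from 15.8 and 17.1 CPM in vehicle to 31.7 and 32.2 CPM at 4 h and 27.3 and 27.8 CPM at 24 h. CEBPG went from 84.4 and 88.0 CPM to 137 and 139 CPM and then 124 and 129.8 CPM.

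Among the effectors, CHAC1, a glutathione-degrading enzyme, showed the largest change of the 10 genes at both times. Its 2 vehicle libraries read 12.6 and 12.9 CPM, against 35.1 and 35.4 CPM at 4 h and 34.8 and 35.8 CPM at 24 h (1.47 ± 0.0767 and 1.47 ± 0.0763). TRIB3, a pseudokinase that restrains ATF4 and CHOP, was at 74.9 and 76.6 CPM in vehicle, at 146 and 147 CPM at 4 h and at 156 and 160.2 CPM at 24 h. DDIT4 (REDD1) and SESN2 both restrain the growth kinase complex mTORC1. DDIT4 was at 171 and 173 CPM in vehicle, 289.9 and 290.2 CPM at 4 h and 309.9 and 317 CPM at 24 h, whereas SESN2 peaked early, with 41.8 and 45.3 CPM in vehicle, 86.3 and 91.7 CPM at 4 h and 73.2 and 75.5 CPM at 24 h. PPP1R15A (GADD34), the inducible subunit of the phosphatase that reverses eIF2 phosphorylation, had the smallest estimate at both times, with intervals that overlapped those of other members. It read 3.66 and 4.15 CPM in vehicle, 4.86 and 5.67 CPM at 4 h and 5.24 and 5.48 CPM at 24 h, and it was the gene that did not pass at 4 h, though it did without the filter on low counts (0.41). Its difference at 24 h was 0.45 ± 0.135, close to that of ATF3 (0.47 ± 0.0585), and it passed there. That call was lost with DESeq2 (0.44), with vehicle replicate 1 from its ZC2 column alone (0.39), with a term for the column-name prefix (0.19), and without vehicle replicate 2 (0.36), enzalutamide 24 h replicate 1 (0.41) or replicate 2 (0.47).

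**Figure D1:**
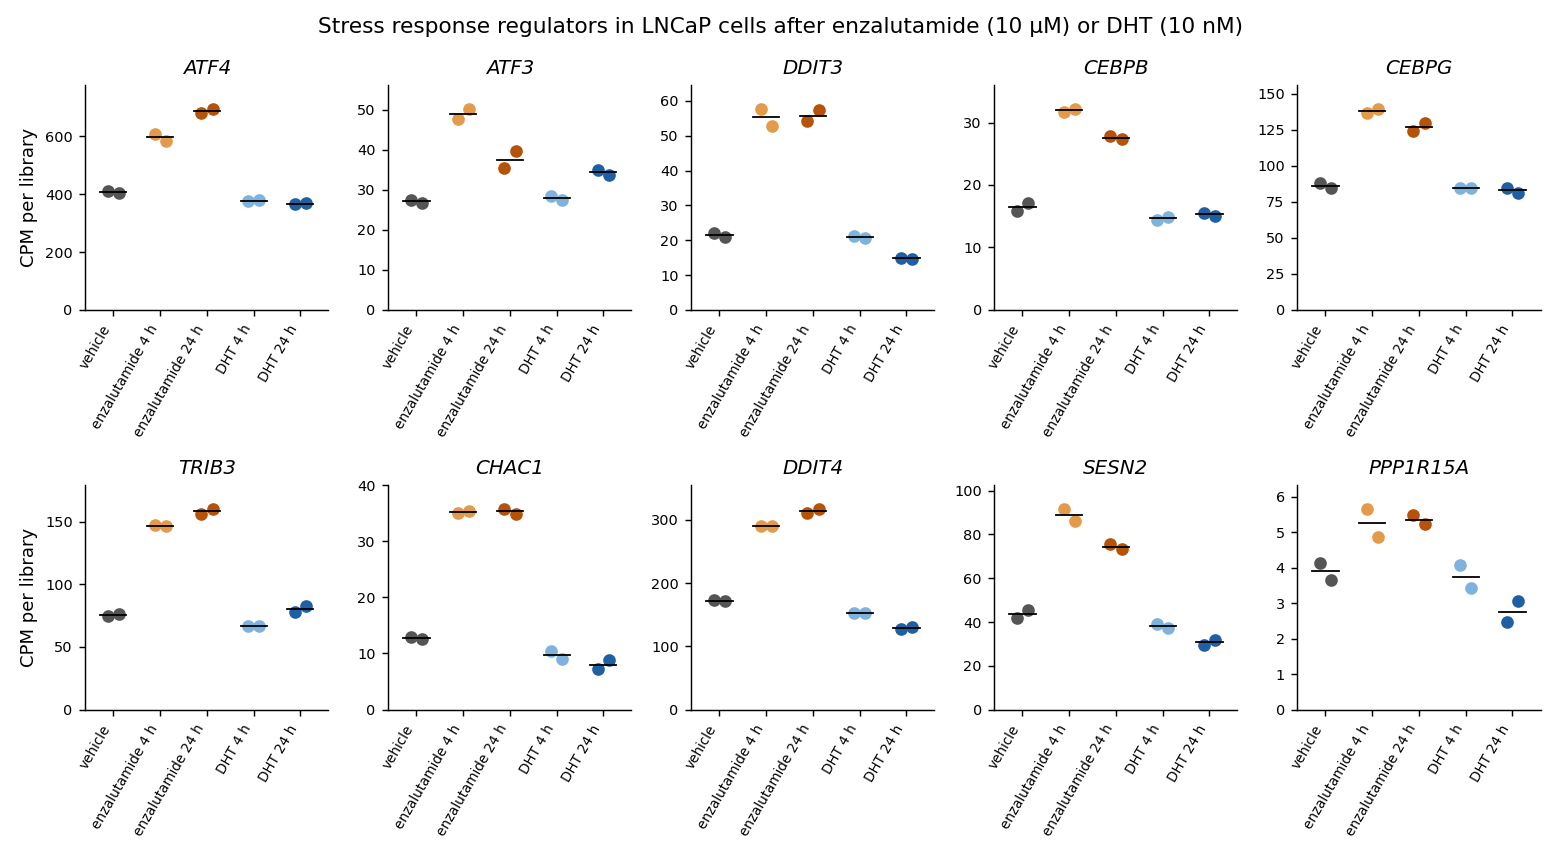
CPM of each regulator (y axis, linear from 0, its own scale per panel) in the 2 samples of each ligand condition (x axis), with each point a library and the black line the mean of 2. The enzalutamide points lie above both vehicle points in all 10 panels, and for CHAC1 the DHT points lie at or below 10.4 CPM while vehicle lies at 12.6 and 12.9 CPM.

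Between 4 h and 24 h of enzalutamide some of the genes differed. No time was given for vehicle. For either ligand, time under the ligand and time in culture thus cannot be told apart between 4 h and 24 h. The enzalutamide libraries are among those known when the genes were chosen, so the tests are no independent evidence. ATF4 rose by 0.21 ± 0.0303 (adjusted p = 0.000287) and DDIT4 by 0.11 ± 0.0315 (0.0195), while ATF3 fell by 0.39 ± 0.0562 (0.00027), SESN2 by 0.26 ± 0.051 (0.00249), CEBPB by 0.21 ± 0.0526 (0.0097) and CEBPG by 0.12 ± 0.0403 (0.0407). These 6 of 10 genes compare with 24.6% of all genes called (11.7% higher, 12.9% lower). For CHAC1, DDIT3 and PPP1R15A the differences were 0.00, 0.01 and 0.03, with 95% intervals of -0.15 to 0.15, -0.10 to 0.13 and -0.25 to 0.31. TRIB3 differed by 0.11 ± 0.0374 (0.0556). Both 4 h libraries carry the prefix ZC2 in their column names and both 24 h libraries ZC3, a mark the labels do not explain. With the prefix as a term, or without enzalutamide 24 h replicate 2, 3 genes passed (ATF4, ATF3 and SESN2), and over all 21 alternatives the call of CEBPG was lost in 10 and that of DDIT4 in 7.

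The second question was whether the androgen moved the same genes. After 4 h of DHT, 3 of the 10 genes fell and none rose, against 6.77% of all genes called (4.66% higher, 2.11% lower). CHAC1 fell by 0.39 ± 0.0856 (adjusted p = 0.0121), to 9.01 and 10.4 CPM. TRIB3 fell by 0.18 ± 0.0395 (0.0117), to 66.6 and 66.9 CPM, and DDIT4 by 0.17 ± 0.0323 (0.00425), to 152.7 and 152.9 CPM. The groups did not overlap for these 3 genes, yet the count was unsteady: 1 gene passed without vehicle replicate 2 or without DHT 4 h replicate 1, none without DHT 4 h replicate 2, and 5 without either enzalutamide 4 h library. Further settings also gave 5 genes, adding ATF4 and SESN2, both lower. ATF3 (0.04, 95% interval -0.09 to 0.17), CEBPG (-0.03, -0.12 to 0.06) and DDIT3 (-0.05, -0.18 to 0.08) did not pass at this time. These comparisons share the vehicle libraries with those of enzalutamide.

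After 24 h of DHT, 6 of the 10 genes fell and 1 rose, when 50.0% of all genes were called (23.2% lower, 26.9% higher). CHAC1 again moved most and fell by 0.68 ± 0.090 (adjusted p = 3.31e-05), with 7.26 and 8.79 CPM against 12.6 and 12.9 CPM in vehicle. DDIT3 fell by 0.54 ± 0.0634 (1.1e-05), to 14.7 and 14.9 CPM, and SESN2 by 0.51 ± 0.0564 (7.12e-06), to 29.7 and 31.6 CPM. DDIT4 fell by 0.42 ± 0.0326 (2.36e-07) and ATF4 by 0.15 ± 0.0306 (0.00137). PPP1R15A fell by 0.52 ± 0.148 (0.0103), a call that was lost without vehicle replicate 1 (-0.42, 0.0988), without DHT 24 h replicate 1 (-0.36, 0.124) and with vehicle replicate 1 from its ZC1 column alone (-0.39, 0.0539). ATF3 went the other way and rose by 0.34 ± 0.0592 (0.000339), to 33.8 and 34.96 CPM, so both ligands left it above vehicle at 24 h. CEBPB, CEBPG and TRIB3 did not pass, with differences of -0.10, -0.06 and 0.08.

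Between 4 h and 24 h of DHT, 7 of the 10 genes changed (49.8% of all genes called, 26.3% higher and 23.5% lower). DDIT3 fell by 0.49 ± 0.0631 (adjusted p = 2.64e-05), SESN2 by 0.32 ± 0.0565 (0.000378), DDIT4 by 0.25 ± 0.0326 (3.24e-05), PPP1R15A by 0.46 ± 0.147 (0.0204) and CHAC1 by 0.29 ± 0.0922 (0.019). ATF3 rose by 0.30 ± 0.0585 (0.000902) and TRIB3 by 0.26 ± 0.0395 (0.000103). The calls of CHAC1 and PPP1R15A were lost without DHT 4 h replicate 1 and without DHT 24 h replicate 1, those of CHAC1 and ATF3 with the prefix term (adjusted p = 0.105 and 0.0708), and that of PPP1R15A with DESeq2 (0.0577). Set directly against DHT at the same time, enzalutamide gave higher values for all 10 genes at 4 h (0.48 to 1.86, with 15.8% of all genes called, 7.28% higher and 8.49% lower). Both enzalutamide 4 h libraries carry the prefix ZC2 and both DHT 4 h libraries ZC1, so ligand and prefix cannot be told apart between them. Over 11 alternatives other than leaving out 1 sample, 9 or 10 genes passed. PPP1R15A was the gene that was lost, and its difference ranged from 0.21 to 0.49 over them. At 24 h the values were higher for 9 genes by 0.61 to 2.15 (64.9% called, 33.6% higher and 31.3% lower). Because the enzalutamide libraries are those for which the genes were known, these are descriptions. ATF3 was the exception at 24 h: enzalutamide exceeded DHT by 0.13, with a 95% interval of 0.00 to 0.25. It passed, higher, with library size only (0.19), with the prefix term (0.16) and without enzalutamide 24 h replicate 1 (0.19).

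Over the 5 ligand conditions, CHAC1, ATF4, DDIT4 and SESN2 had the same order of levels, from DHT 24 h through DHT 4 h and vehicle up to enzalutamide, with no overlap between these steps. Of these steps, DHT 4 h against vehicle did not pass for ATF4 and SESN2, nor DHT 24 h against 4 h for ATF4. The step up to enzalutamide was known when the genes were chosen. How many of all genes have this order was not counted, so nothing is read from it. The DHT and vehicle libraries of CEBPG overlapped, all lying between 81.0 and 88.0 CPM, and those of PPP1R15A overlapped between DHT 4 h and vehicle.

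The third question was what GATA2 silencing did to these genes. In siControl cells, 25 µM enzalutamide gave higher values of all 10 genes, and all 10 passed (42.1% of all genes called, 17.7% higher and 24.4% lower), with no overlap between groups. These libraries again belong to the known contrast and carry no test. The dose was higher than in the ligand experiment and the tables were normalized separately, so sizes are not compared across experiments. Fold changes from here on are on the log2(RPKM + 0.1) scale, fitted with limma.

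CHAC1 was at 4.75, 5.02 and 5.14 RPKM in siControl cells given vehicle and at 33.1, 37.7 and 40.5 RPKM under enzalutamide, a difference of 2.87 ± 0.172. In siGATA2 cells it was at 0.998, 1.37 and 1.87 RPKM with vehicle and at 1.64, 1.78 and 1.98 RPKM with enzalutamide, so that all 6 siGATA2 libraries lay below the lowest siControl library. DDIT3 went from 18.0, 18.7 and 18.9 RPKM to 77.7, 90.3 and 99.7 RPKM in siControl cells (2.25 ± 0.0771). In siGATA2 cells it started higher, at 26.1, 28.8 and 29.4 RPKM, and was at 31.1, 32.5 and 32.8 RPKM with enzalutamide. TRIB3 went from 21.5, 23.4 and 23.5 RPKM to 77.7, 87.0 and 93.2 RPKM (1.91 ± 0.0827). Its siGATA2 libraries overlapped between treatments, with 15.8, 17.7 and 19.1 RPKM in vehicle and 16.5, 17.6 and 18.9 RPKM in enzalutamide.

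ATF4 stood at 123.2, 123.4 and 126 RPKM in siControl vehicle and at 278, 282 and 298 RPKM with enzalutamide (a difference of 1.2 ± 0.0343). With siGATA2 it stood at 88.4, 93.2 and 93.4 RPKM in vehicle and at 99.5, 100.1 and 105 RPKM in enzalutamide, below the siControl vehicle libraries in either case. DDIT4, the most abundant of the 10 transcripts per kilobase, was at 157, 184 and 184 RPKM and then at 538, 599.5 and 627 RPKM in siControl cells (1.75 ± 0.0966). In siGATA2 cells it was at 269, 330.2 and 338 RPKM in vehicle and at 324, 324 and 352 RPKM with enzalutamide. ATF3 read 11.4, 11.9 and 12.2 RPKM in siControl vehicle and 25.8, 29.9 and 32.5 RPKM with enzalutamide (1.30 ± 0.0792). Its siGATA2 libraries already sat at 24.0, 27.4 and 27.7 RPKM in vehicle and at 24.9, 25.1 and 26.4 RPKM with enzalutamide. GATA2 silencing alone thus took ATF3 to a level that overlapped the enzalutamide-treated siControl libraries.

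The remaining members are given as the range of each group. SESN2 was at 10.7 to 11.4 RPKM in siControl vehicle and 20.3 to 22.0 RPKM with enzalutamide (0.93 ± 0.0429), and CEBPB at 8.30 to 10.1 and 18.8 to 24.6 RPKM (1.23 ± 0.138). CEBPG was at 23.6 to 23.9 and 37.6 to 40.6 RPKM (0.71 ± 0.0348). PPP1R15A was at 2.49 to 2.80 and 3.32 to 3.40 RPKM (0.35 ± 0.0864). In siGATA2 cells SESN2 stayed at 11.2 to 12.3 RPKM, CEBPG at 20.8 to 23.9 RPKM and CEBPB at 11.4 to 15.7 RPKM over both treatments. PPP1R15A was at 3.43 to 3.79 RPKM with vehicle and at 3.13 to 4.11 RPKM with enzalutamide. The latter range, but not the former, overlapped the enzalutamide-treated siControl libraries.

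**Figure D2:**
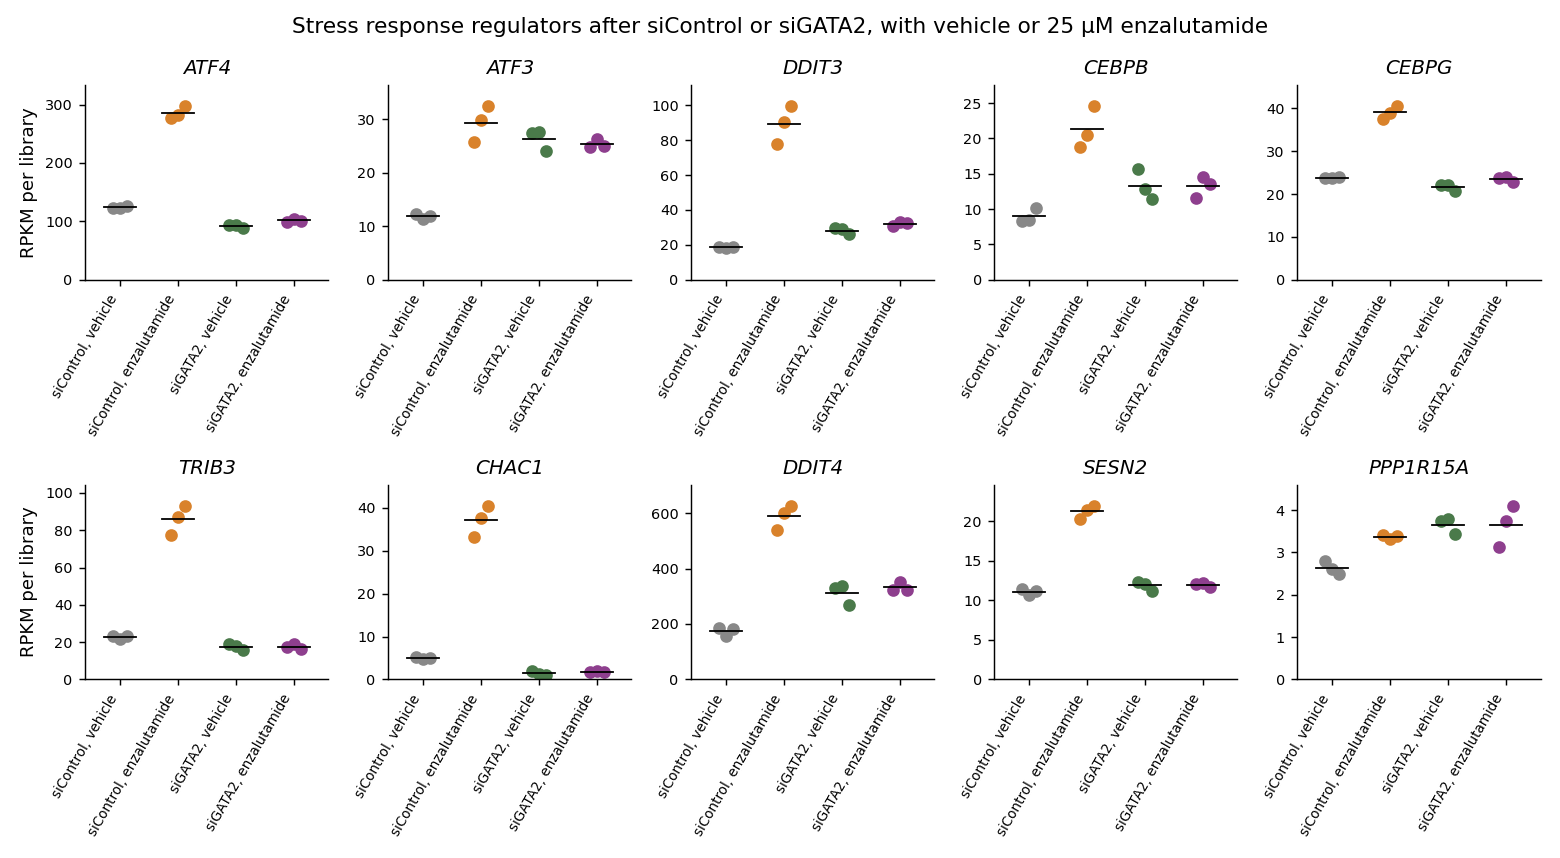
RPKM of each regulator (y axis, linear from 0, its own scale per panel) in the 3 libraries of each siRNA condition (x axis), with each point a library and the black line the mean of 3. For CHAC1 the siControl enzalutamide libraries reach 33.1 to 40.5 RPKM and the 6 siGATA2 libraries stay between 0.998 and 1.98 RPKM.

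In siGATA2 cells, none of the 10 genes passed with enzalutamide at adjusted p below 0.05 (limma). In this contrast 0.412% of all genes were called (0.221% higher, 0.191% lower), 84 in number. With so few genes called, nothing is read from the absence of calls among the 10. Earlier results of these data were known when the genes were chosen, so this contrast is not independent of the choice. ATF4 differed by 0.15 ± 0.0343 (95% interval 0.07 to 0.22, adjusted p = 0.137), DDIT3 by 0.19 ± 0.0771 (0.02 to 0.36, 0.408) and CEBPG by 0.11 ± 0.0348 (0.03 to 0.18, 0.29). The groups of these genes did not overlap. How many of all genes show as much was not counted, so nothing is read from it. CHAC1 differed by 0.36 ± 0.172 (0.487), with a 95% interval of -0.02 to 0.75, and TRIB3 by 0.01 (-0.17 to 0.20). For ATF3, CEBPB, SESN2 and DDIT4 the intervals were -0.22 to 0.13, -0.31 to 0.31, -0.08 to 0.11 and -0.12 to 0.31, and for PPP1R15A -0.20 to 0.19. The intervals do not show that the genes were without response. Their upper limits lay below the lower limits of the siControl intervals for every gene except PPP1R15A, where -0.20 to 0.19 overlapped 0.16 to 0.54.

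The difference between the 2 enzalutamide effects was tested as the interaction of siRNA and treatment. For 9 of the 10 genes the effect in siGATA2 cells was smaller (25.8% of all genes called, 10.8% in this direction and 15.0% in the other). The difference was -2.51 ± 0.243 for CHAC1, -2.06 ± 0.109 for DDIT3, -1.89 ± 0.117 for TRIB3 and -1.65 ± 0.137 for DDIT4 on the log2 scale. ATF3, CEBPB, ATF4, SESN2 and CEBPG followed with -1.35, -1.23, -1.06, -0.91 and -0.61. The largest adjusted p of the 9 was 0.00125, for CEBPB. PPP1R15A had -0.35 ± 0.122 (adjusted p = 0.0574), and passed with a mean of at least 1 RPKM as filter (0.0234). This test contains the siControl libraries for which the genes were known, so it is no independent evidence. siGATA2 libraries also had lower KLK3 (21.7 to 26.3 RPKM against 765 to 816 RPKM in vehicle) and of 10 LNCaP markers 4 were higher and 5 lower in siGATA2 cells in either treatment. The sum of all 10 was lower (945 to 966 against 1611 to 1682 RPKM in vehicle, 924 to 940 against 979 to 1044 RPKM in enzalutamide), but without KLK3 it was higher, at 918 to 944 against 846 to 866 RPKM in vehicle and at 905 to 921 against 723 to 737 RPKM in enzalutamide. The part of these markers in the result was not tested.

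**Figure D3:**
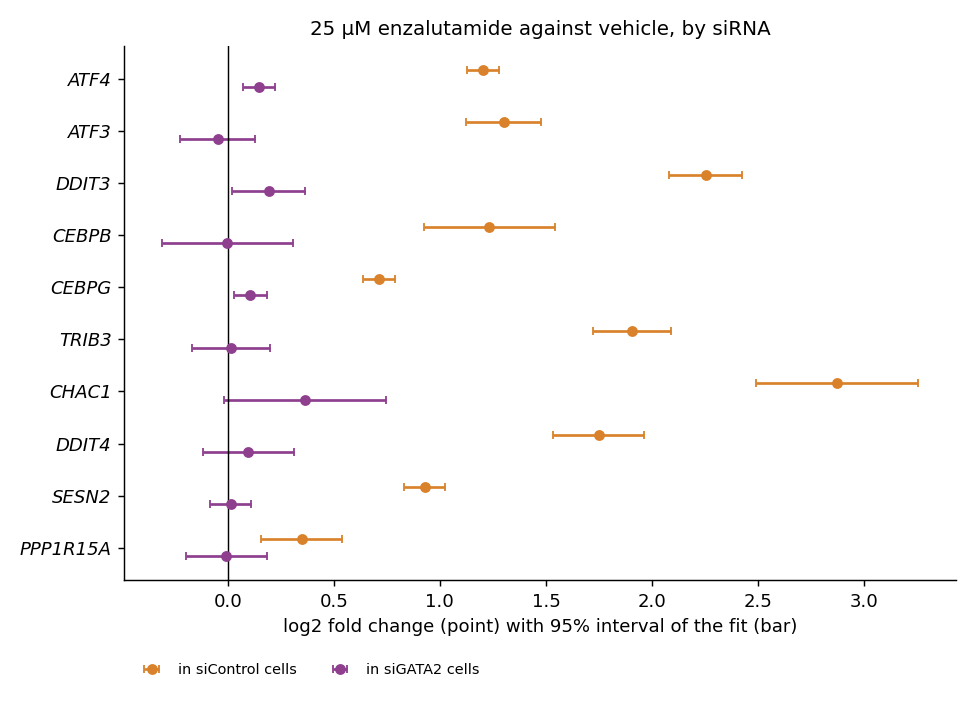
Log2 fold change of 25 µM enzalutamide against vehicle (x axis, point) with its 95% interval from the limma fit (bar) for each regulator (y axis), in siControl (orange) and siGATA2 cells (purple), n = 3 libraries a group. In siControl cells the points run from 0.35 to 2.87, and in siGATA2 cells from -0.05 to 0.36.

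Without enzalutamide, GATA2 silencing split the regulators. In vehicle-treated cells 5 of the 10 genes rose and 4 fell (55.6% of all genes called, 24.2% higher and 31.4% lower), with no shared direction. ATF3 rose by 1.15 ± 0.0792 (adjusted p = 4.99e-07), DDIT4 by 0.83 ± 0.0966 (2.72e-05), DDIT3 by 0.60 ± 0.0771 (6.21e-05), CEBPB by 0.56 ± 0.138 (0.00542) and PPP1R15A by 0.46 ± 0.0864 (0.000944). CHAC1 fell by 1.78 ± 0.172 (6.6e-06), ATF4 by 0.44 ± 0.0343 (1.32e-06), TRIB3 by 0.38 ± 0.0827 (0.00235) and CEBPG by 0.13 ± 0.0348 (0.00838). SESN2 differed by 0.10 ± 0.0429 (0.0845). The call of CEBPG was lost when libraries were shifted to a common median (-0.06, 0.197), and SESN2 passed there (0.17, 0.00616) and without siGATA2 vehicle replicate 3 (0.14, 0.0128). The siControl vehicle libraries are shared with the enzalutamide contrast.

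Under enzalutamide, siGATA2 cells had lower values than siControl cells for 8 of the 10 genes (54.5% of all genes called, 26.3% higher and 28.1% lower). The difference was -4.29 ± 0.172 for CHAC1, -2.28 ± 0.0827 for TRIB3, -1.49 ± 0.0343 for ATF4 and -1.46 ± 0.0771 for DDIT3. DDIT4, SESN2, CEBPG and CEBPB lay between -0.82 and -0.68. ATF3 (-0.20, 95% interval -0.38 to -0.03, adjusted p = 0.0529) and PPP1R15A (0.10, -0.09 to 0.30) did not pass. Without siControl enzalutamide replicate 1, ATF3 passed (-0.29), as it did with a mean of at least 1 RPKM as filter (adjusted p = 0.0210), and so did PPP1R15A without siGATA2 enzalutamide replicate 1 (0.21). CHAC1, TRIB3, ATF4 and CEBPG were thus lower in siGATA2 cells in both treatments, while DDIT3, DDIT4 and CEBPB were higher in vehicle and lower in enzalutamide. The enzalutamide-treated siControl libraries are part of the known contrast.

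**Figure D4:**
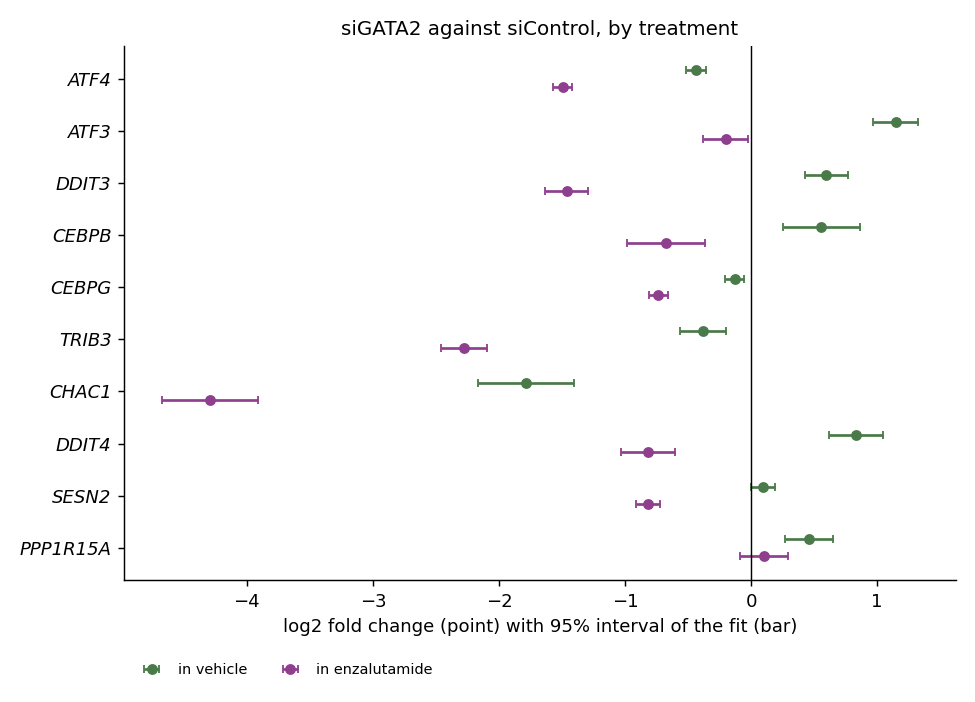
Log2 fold change of siGATA2 against siControl (x axis, point) with its 95% interval from the limma fit (bar) for each regulator (y axis), in vehicle (green) and in 25 µM enzalutamide (purple), n = 3 libraries a group. CHAC1 lies at -1.78 and -4.29, whereas ATF3 lies at 1.15 in vehicle and -0.20 in enzalutamide.

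Across libraries the 10 genes were compared in pairs. They were chosen with their higher levels after enzalutamide known, and this choice alone favors high coefficients. No such values were computed for sets of other genes. Over the 10 libraries of the ligand experiment the 45 pairs had Pearson r between 0.498 and 0.993 (median 0.947) of log2 CPM. Over the 12 siRNA libraries the same pairs ranged from -0.225 to 0.993 (median 0.769), and 3 pairs were negative. These were PPP1R15A with CHAC1 (-0.225), ATF4 (-0.112) and TRIB3 (-0.0515). The libraries of a condition share a treatment and the values of a library share its depth, so the coefficients are descriptions and carry no test. The likest genes were ranked by the smaller of both coefficients among 10525 genes with an average level of at least 1 on the log2 scale in both experiments. ATF4 was closest to ADM2 (0.994), GARS (0.988) and TSC22D3 (0.987), and CHAC1 to CARS (0.986), ADM2 (0.982) and ULBP1 (0.981). TRIB3 was closest to SLC3A2 (0.983), STC2 (0.980) and XBP1 (0.976). Other members were among the likest genes of DDIT3 (R3HDM2, 0.970, SIAH1, 0.968 and SESN2, 0.967), DDIT4 (SIAH1, 0.98, ZFAND3, 0.961 and DDIT3, 0.958), SESN2 (DDIT3, 0.967, IFRD1, 0.964 and CEBPG, 0.963) and CEBPB (DDIT4, 0.949, DDIT3, 0.942 and JDP2, 0.929). CEBPG was closest to FUT1 (0.976), HERPUD1 (0.972) and ZXDC (0.966). The lowest likeness was that of ATF3, with WWC3 (0.881), DOP1B (0.879) and SOWAHC (0.877), and that of PPP1R15A, with EPAS1 (0.911), PELI2 (0.908) and CUTALP (0.904).

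The genes downstream of ATF4 were followed as a list of 30 outputs (amino acid synthesis, transport, tRNA charging and secreted factors), chosen with earlier results known. In siControl cells all 30 passed as higher with enzalutamide (17.7% of all genes), with a median of 1.03 against -0.02 over all genes. ASNS, asparagine synthetase, was higher by 1.48 ± 0.0361, PCK2, the mitochondrial carboxykinase, by 1.46 ± 0.0381, and GDF15, a secreted stress cytokine, by 1.41 ± 0.135. In the ligand experiment 26 were higher at 4 h (median 0.53, 6.94% of all genes higher) and 28 at 24 h (median 0.63, 16.4% higher), and none lower. SLC7A11, the cystine transporter, led at both times, with 1.29 ± 0.0957 and 1.46 ± 0.0959. In siGATA2 cells, enzalutamide raised 1 of 30 (median 0.09, 0.221% of all genes higher), ASNS by 0.34 ± 0.0361 (adjusted p = 0.0037). GATA2 silencing in vehicle lowered 25 and raised 4 (median -0.70), with 31.4% of all genes lower and 24.2% higher. MTHFD2, a mitochondrial folate enzyme, fell by 2.40 ± 0.0312 (9.21e-12), SLC7A1, an arginine transporter, by 1.67 ± 0.0385 (2.44e-10), and ALDH1L2, another mitochondrial folate enzyme, by 1.36 ± 0.0758 (1.01e-07). DHT at 24 h lowered 14 and raised 7 (median -0.15, 23.2% of all genes lower and 26.9% higher), with KLHL24 down by 1.22 ± 0.0501 (6.8e-10) and SLC7A5, a leucine transporter, by 1.08 ± 0.0543 (4.8e-09).

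Upstream, the 21 genes of the eIF2 kinases, eIF2, its exchange factor and phosphatase went both ways with enzalutamide. With enzalutamide in siControl cells 7 were higher and 8 lower (median -0.02), where 17.7% of all genes were higher and 24.4% lower. In the ligand experiment 4 were higher and 1 lower at 4 h (6.94% and 6.68% of all genes), and 9 and 5 at 24 h (16.4% and 17.0%). EIF2AK3, the gene of the ER kinase PERK, was higher by 0.39 ± 0.0506 at 4 h. PPP1R15B, the constitutive paralog of PPP1R15A, was higher by 0.50 ± 0.0471 in siControl cells and not detectably so in siGATA2 cells. None of the 21 passed in siGATA2 cells, where 0.412% of all genes were called. DHT at 24 h raised 14 of the 21 and lowered 2 (median 0.18, 26.9% and 23.2% of all genes), among them EIF2S1, which encodes the phosphorylated subunit of eIF2, by 0.46 ± 0.0428 (adjusted p = 1.22e-06). The 16 targets of the parallel ATF6 and XBP1 branches of the unfolded protein response were also mixed with enzalutamide in siControl cells, 4 higher and 7 lower (median -0.09, 17.7% and 24.4% of all genes). XBP1 was higher there by 0.60 ± 0.0379 and HERPUD1, an ER degradation factor, by 0.56 ± 0.0384, while the ER-secreted factor MANF was lower by 0.56 ± 0.0332. In the ligand experiment 3 of the 16 were higher and 0 lower at 4 h of enzalutamide (6.94% and 6.68% of all genes). At 24 h of enzalutamide 7 were higher and 2 lower (16.4% and 17.0%), with HERPUD1 higher by 0.81 ± 0.0424. At 24 h of DHT 9 of the 16 rose and 1 fell (median 0.22, 26.9% and 23.2% of all genes), led by SDF2L1, an ER chaperone cofactor, with 0.62 ± 0.0617 (2.65e-06).

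**Figure D5:**
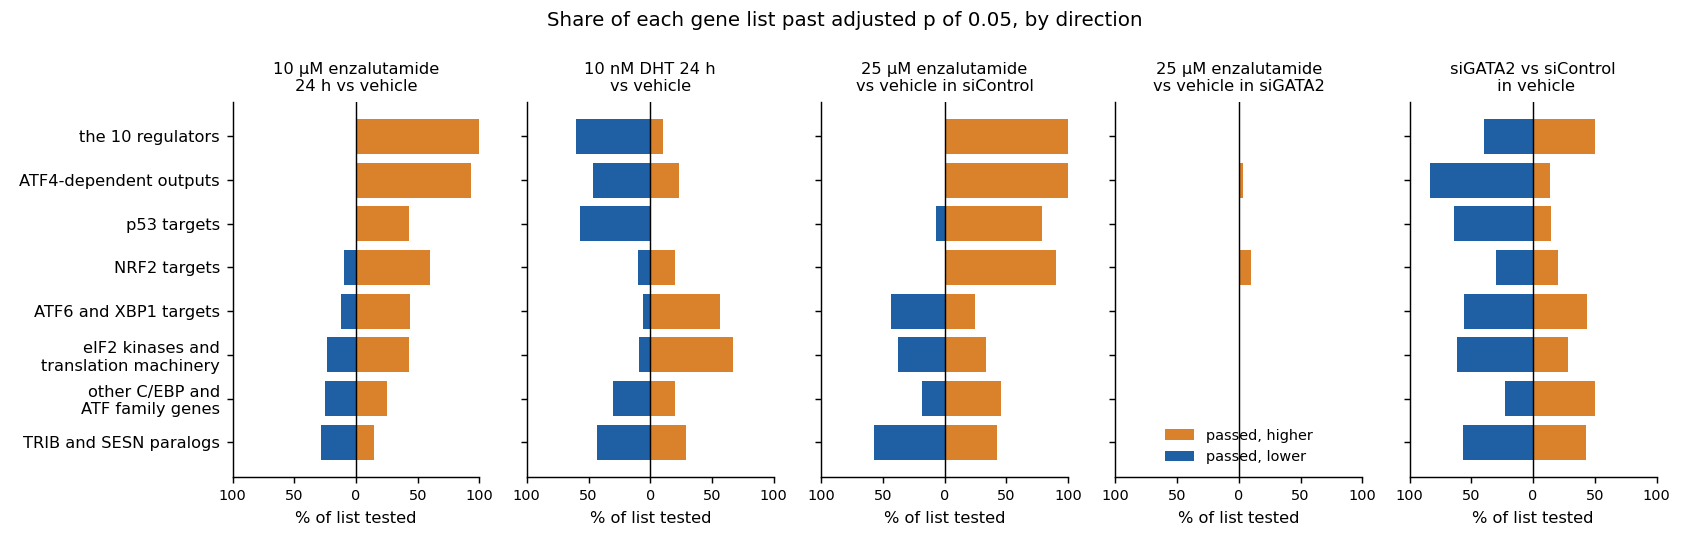
Share of the tested genes of each list (y axis) that passed adjusted p of 0.05, higher (orange, to the right) or lower (blue, to the left), in percent of the list (x axis), for 5 comparisons. The 10 regulators and the 30 ATF4-dependent outputs fill the right side with enzalutamide in siControl cells. In siGATA2 cells they pass 0 and 1 time, where 0.412% of all genes were called. The regulators and the outputs were chosen with the enzalutamide contrasts known.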

How the data were processed

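The ligand tables hold estimated counts per gene (only part of the values are whole) that the authors made with TopHat 2.0.13 and Partek Genomics Suite (v6.6) per their methods, on hg19 per the submitters' processing notes. The siRNA tables hold RPKM, deposited by the authors under file names that speak of read counts, and their depth is unknown. Estimated counts were rounded, filtered with filterByExpr, scaled by TMM and tested with edgeR 4.0.16 (quasi-likelihood) over 10 libraries. RPKM of genes above 0 in at least 3 libraries were tested with limma 3.58.1 (trend) as log2(RPKM + 0.1) over 12 libraries. Both used R 4.3.3, Benjamini-Hochberg adjustment over all genes and a limit of 0.05, and were tested on simulated data. Ligand totals ran from 38894849 to 59985231 estimated counts. Of 4 vehicle columns, 3 carry replicate number 1, differed from each other less (mean chi-square per gene 1.53 to 1.56) than from the fourth (3.56 to 3.74), and were summed as 1 sample. The sample titles instead number the vehicle replicates 1 to 4, and column names do not show which is which. Whether the 3 are repeats of 1 culture is not stated. The 2 enzalutamide 4 h libraries differed most within a condition (9.82). Members and lists were chosen with earlier results of these data known. List genes named are the up to 3 with the largest change among those that passed, did not overlap and had an average level of at least 1 on the log2 scale; members are named throughout. Alternatives were other scalings, filters, DESeq2 1.42.0 (an alternative for estimated counts), left-out samples and a replicate block. Same-numbered samples did not deviate together (r -0.103 to 0.0633 in the ligand and -0.439 to 0.386 in the siRNA experiment).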

Additional observations from a re-analysis of the deposited data

Results flagged for a closer look

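Of the 10 regulators, 9 differed in their response to enzalutamide between siControl and siGATA2 cells by the interaction test across all genes (limma, adjusted p below 0.05), where 25.8% of all genes were called and 10.8% were lower. The test contains the siControl libraries for which the genes were known. The effect in siGATA2 cells minus that in siControl cells was -2.51 for CHAC1, -2.06 for DDIT3, -1.89 for TRIB3, -1.65 for DDIT4, -1.35 for ATF3, -1.23 for CEBPB, -1.06 for ATF4, -0.91 for SESN2 and -0.61 for CEBPG (log2).

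Levels under enzalutamide differed between 24 h and 4 h for 6 regulators (edgeR, adjusted p below 0.05, 24.6% of all genes called). The difference was 0.21 for ATF4, 0.11 for DDIT4, -0.39 for ATF3, -0.26 for SESN2, -0.21 for CEBPB and -0.12 for CEBPG. With the column-name prefix as a term, they differed for 3. Levels under DHT differed between the times for 7 (49.8% of all genes called). The difference was 0.30 for ATF3, 0.26 for TRIB3, -0.49 for DDIT3, -0.46 for PPP1R15A, -0.32 for SESN2, -0.29 for CHAC1 and -0.25 for DDIT4. No time was given for vehicle, so time under the ligand and time in culture cannot be told apart in these differences.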

How the results depend on the processing

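Over all settings, the number of the 10 regulators that passed stayed within 1.5 times its value in every comparison except DHT at 4 h and enzalutamide at 24 h against 4 h. For DHT at 4 h (3 genes) it was 5 with library size only, with only the conditions compared, with vehicle columns as separate samples and with the column-name prefix as a term, the last chosen after seeing the data. For enzalutamide at 24 h against 4 h (6 genes) it was 3 with the prefix term. Leaving out 1 sample at a time gave 0 to 5 and 3 to 6 genes; the lone sample left was assumed to vary like the other groups. The cause was not tested. The GATA2 check gave 0.1 within vehicle and within enzalutamide, the smallest p of 3 against 3. A replicate block (the numbers do not pair the samples) gave 5 genes for enzalutamide at 24 h against 4 h, 3 for DHT at 4 h and 0 for enzalutamide in siGATA2 cells.

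Values near 0 changed sign. For CHAC1 at 24 h against 4 h of enzalutamide the log2 difference was -0.011 with RLE factors, -0.0025 without a filter, -0.012 with DESeq2, -0.0044 with only the conditions compared, -0.0041 with separate vehicle columns and -0.21 with the prefix term, which also gave -0.038 for DDIT3 and -0.079 for PPP1R15A. For DHT at 4 h, PPP1R15A was at 0.0626 with the ZC1 vehicle column alone and 0.0624 with the prefix term, and DDIT3 at 0.013 with the ZC2 column alone. Shifting libraries to a common median gave 0.016 for CEBPB and 0.011 for PPP1R15A in siGATA2 cells given enzalutamide. Leaving out 1 sample at a time gave -0.054 to 0.0063 for CEBPG and -0.195 to 0.063 for PPP1R15A with DHT at 4 h. For enzalutamide at 24 h against 4 h it gave -0.025 to 0.015 for CHAC1, -0.054 to 0.077 for DDIT3 and -0.086 to 0.140 for PPP1R15A. In siGATA2 cells given enzalutamide it gave -0.107 to 0.122 for CEBPB, -0.0052 to 0.158 for DDIT4, -0.093 to 0.099 for PPP1R15A, -0.029 to 0.042 for SESN2 and -0.059 to 0.076 for TRIB3. None of these values passed the test.

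Of all genes, enzalutamide at 4 h called 2119, but 781 with only the conditions compared and 1224 with the prefix term. Enzalutamide against DHT at 4 h called 2453 (1578 and 1060), and enzalutamide at 24 h against 4 h 3829 (1628 with the prefix term). Enzalutamide in siGATA2 cells called 84, or 24 with only the conditions compared and 29 with the replicate block. Leaving out 1 sample lowered these counts to 1058, 1256, 2139 and 27, and those of enzalutamide at 24 h from 5194 to 3098 and of DHT at 4 h from 1053 to 570. Depth limits PPP1R15A most in the ligand libraries.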

Other observations

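Besides the list of ATF4-dependent outputs, 2 further lists were followed with enzalutamide in siControl cells. Whether ATF4 acts on their genes was not tested. Of 10 NRF2 targets (antioxidant genes) 9 were higher (17.7% of all genes), with a median of 0.45 against -0.02 over all genes, led by HMOX1, heme oxygenase, with 1.64 ± 0.134, OSGIN1 with 0.99 ± 0.092 and SRXN1, which repairs peroxiredoxins, with 0.66 ± 0.0323. In the ligand experiment none of the 10 passed at 4 h with edgeR (13.6% of all genes called), and 6 were higher and 1 lower at 24 h (16.4% and 17.0% of all genes), when HMOX1 stood 0.96 ± 0.0955 above vehicle and NQO1, a quinone reductase, 0.46 ± 0.0348 above it. Of 14 p53 targets 11 were higher in siControl cells and 1 lower (median 0.37, 17.7% and 24.4% of all genes), with BBC3, the gene of PUMA, at 1.08 ± 0.151 and CDKN1A, a cell cycle inhibitor, at 0.97 ± 0.0763. In the ligand experiment 4 of the 14 were higher at 4 h (median 0.11, 6.94% of all genes higher). At 24 h 6 were higher (median 0.11, 16.4% of all genes higher), and none was lower at either time. In siGATA2 cells 1 of 10 NRF2 targets (NQO1, 0.15 ± 0.0264, adjusted p = 0.0494, limma) and 0 of 14 p53 targets passed, where 0.412% of all genes were called.

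Relatives of the regulators went both ways. With enzalutamide in siControl cells 10 of 22 other C/EBP, ATF and AP-1 genes were higher and 4 lower (median 0.15 against -0.02 over all genes), and of 7 paralogs 3 were higher and 4 lower, where 17.7% of all genes were higher and 24.4% lower. SESN3, a paralog of SESN2, was lower by 0.52 ± 0.0495 in siControl cells. CHAC2, the paralog of CHAC1, was lower by 0.67 ± 0.0964 after 24 h of enzalutamide and rose by 0.62 ± 0.0877 after 24 h of DHT (adjusted p = 5.77e-05, edgeR). SESN1 fell by 0.87 ± 0.0348 after 24 h of DHT (5.5e-10) and by 0.93 ± 0.0277 in siGATA2 cells given vehicle (1.36e-09). GATA2 silencing in vehicle raised JUN, an AP-1 subunit, by 1.11 ± 0.0655 (1.51e-07) and JUNB by 0.76 ± 0.1 (7.36e-05).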
